A study of Mus musculus with 12 samples.

Results

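The genes described here encode the enzymes and transporters that make and store histamine and eicosanoids, the main small-molecule mediators of basophils. They are the 10 genes Hdc, Slc18a2, Pla2g4a, Alox5, Alox5ap, Ltc4s, Ptgs1, Ptgs2, Hpgds and Alox15, chosen by symbol from 31301 gene symbols in the count table, and all 10 had a row with counts. RNA was sequenced from basophils that had been grown from bone marrow of wild-type (WT) C57BL/6J animals during 7 days with IL-3 at 0.3 ng/mL or with TSLP at 1 µg/mL, the second dose being that of the treatment protocol, since the labels give it in different units in different places. From these bone marrow-derived basophils (BMBAs), FcεRIαhi CD49blo cells, which the study calls pre-basophils and which are named immature here, and FcεRIαlo CD49bhi cells, named mature, were sorted. Crossing 2 cytokines with 2 stages gave 4 groups (IL-3 or TSLP, immature or mature) of 3 libraries, each from 1 of 3 cultures per the study, so p values measure the spread between cultures. The question was how IL-3- and TSLP-elicited basophils at matched stages differ from each other, and how each changes with maturation.

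Histamine is made from histidine by histidine decarboxylase (Hdc) and is pumped into granules by the vesicular monoamine transporter VMAT2 (Slc18a2), from which basophils release it when IgE on their surface is cross-linked. Eicosanoids are not stored but made on activation from arachidonic acid, which cytosolic phospholipase A2 (Pla2g4a) cuts from membrane lipids. Arachidonic acid then enters the leukotriene branch through the enzyme encoded by Alox5 and its helper protein FLAP (Alox5ap), the prostanoid branch through the cyclooxygenases (Ptgs1, Ptgs2), or a further lipoxygenase branch through Alox15. Leukotriene C4 synthase (Ltc4s) adds glutathione to the leukotriene intermediate, and haematopoietic prostaglandin D synthase (Hpgds) makes prostaglandin D2.

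Library totals ran from 1720065 to 3685285 counts, with 14494 to 16256 genes detected in a library. All 8 basophil markers examined had counts in every group. In IL-3 cultures they summed to 37950 to 41410 CPM (counts scaled to library size, after TMM normalisation) in immature and 9477 to 11800 CPM in mature libraries. In TSLP cultures the sums were 26800 to 29790 and 7506 to 10670 CPM. The markers did not move alike. With IL-3, Prss34 averaged 19650 CPM in immature and 788 CPM in mature cells, whereas Cd200r3 averaged 725 and 1260 CPM. Of 9 mast cell markers, summed at 0 to 8.91 CPM, Mcpt1, Mrgprb2 and Tpsab1 were at 0 in all 12 libraries, Kit and Mrgprb1 had 0 to 4 counts, and Tpsb2 and Cma1 had up to 15 and 8 counts in libraries of IL-3 cultures. Itga2, which encodes CD49b, averaged 27.3 CPM in immature and 247 CPM in mature cells of IL-3 cultures and 86.4 and 168 CPM in those of TSLP cultures, the direction of the sort. In TSLP mature 1 it was 96.9 CPM, against 208.5 and 199.1 CPM in the other TSLP mature libraries. Fcer1a, which encodes FcεRIα, averaged 1599 and 1023 CPM in the IL-3 groups. In the TSLP groups it averaged 1338 and 1263 CPM, with TSLP mature 1 at 1779 CPM, above every TSLP immature library. TSLP mature 1 stood apart from the other TSLP mature libraries, with neutrophil markers summed at 1419 CPM against 692 and 668.6, macrophage and monocyte markers at 1704 CPM against 800.1 and 746.8, and B cell markers at 160 CPM against 16.7 and 16.9, so results that rest on it are given with and without it.

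Windows of 250 bases before the RefSeq transcription start (GRCm38.p6) are printed for 4 genes, Hdc and Ptgs2, which were higher after maturation with IL-3, and Slc18a2 and Alox5, which were lower, so that the start regions of genes moving in opposite directions can be compared. They read 5′ to 3′ on the strand of the gene. Capitals mark letters of the motifs GATAA (GATA factors), TTCNNNGAA (STAT factors), TTGCNNAA (C/EBP factors) or TGTGGT (RUNX factors), searched on both strands.
Hdc, chr2:126618679-126618928, minus strand: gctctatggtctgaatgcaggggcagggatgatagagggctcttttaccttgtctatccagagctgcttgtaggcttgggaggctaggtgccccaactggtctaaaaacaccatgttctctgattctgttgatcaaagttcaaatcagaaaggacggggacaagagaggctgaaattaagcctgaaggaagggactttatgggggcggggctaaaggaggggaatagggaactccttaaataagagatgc
Ptgs2, chr1:150099781-150100030, plus strand: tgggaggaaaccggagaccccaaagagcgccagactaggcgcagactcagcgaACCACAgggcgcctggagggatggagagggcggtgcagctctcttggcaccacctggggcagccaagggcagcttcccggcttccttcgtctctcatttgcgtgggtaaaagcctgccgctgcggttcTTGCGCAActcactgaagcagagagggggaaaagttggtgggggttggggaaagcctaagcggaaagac
Slc18a2, chr19:59260628-59260877, plus strand: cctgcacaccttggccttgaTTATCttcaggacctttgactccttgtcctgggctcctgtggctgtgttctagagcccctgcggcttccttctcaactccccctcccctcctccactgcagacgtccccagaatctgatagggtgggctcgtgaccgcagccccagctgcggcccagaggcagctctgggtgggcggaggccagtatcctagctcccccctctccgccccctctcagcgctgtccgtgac
Alox5, chr6:116461179-116461428, minus strand: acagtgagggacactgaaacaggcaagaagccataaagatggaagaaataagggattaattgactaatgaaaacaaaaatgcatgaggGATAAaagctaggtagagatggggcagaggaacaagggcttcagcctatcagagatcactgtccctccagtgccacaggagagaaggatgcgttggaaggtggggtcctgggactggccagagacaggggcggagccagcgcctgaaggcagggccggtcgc

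The Hdc window held none of the 4 motifs. It precedes the RefSeq start but lies inside the GENCODE span of Hdc, which reaches 126619299, with 0 bases in its exons. The Ptgs2 window held TTGCNNAA letters at 69 and TGTGGT letters at 197 bases before the start. The Slc18a2 and Alox5 windows each held 1 GATAA match, at 230 and 162 bases. Among the windows not printed, a second start of Pla2g4a had 2 GATAA matches, at 161 and 53 bases, and its first start had no match. The Ltc4s window held TGTGGT letters at 156 bases, and the Hpgds window TTGCNNAA letters at 176 and TGTGGT letters at 250 bases. Of these windows, 84 bases for Ltc4s and 178 bases for Hpgds lie in annotated exons of the gene itself. The Ptgs1 window held none of the 4 motifs. No TTCNNNGAA letters were present in the windows of the 8 members that have one in the table. Over all 32851 promoter windows of this length, GATAA was present in 22.6%, TTCNNNGAA in 7.02%, TTGCNNAA in 9.56% and TGTGGT in 14%. A match here is a description of letters, not of a bound site.

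Per kilobase of the longest annotated transcript, the 10 genes spanned a wide range of levels. Alox5ap was highest in every group, at 718 to 1180 CPM per kb, followed in IL-3 immature cells by Slc18a2 (143), Alox5 (133), Hdc (90.7) and Alox15 (86.9). In the mature groups the second place was held by Hdc, at 203 CPM per kb in IL-3 mature and 234 in TSLP mature cells. Pla2g4a (10.4 to 14.2 CPM per kb) and Ptgs2 (2.99 to 20.5) were lower, and Hpgds, Ptgs1 and Ltc4s did not exceed 2.7 CPM per kb in any group. Ltc4s and Ptgs1 were too low to be tested, which leaves 8 of the 10 members in every count below.

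**Figure D1:**
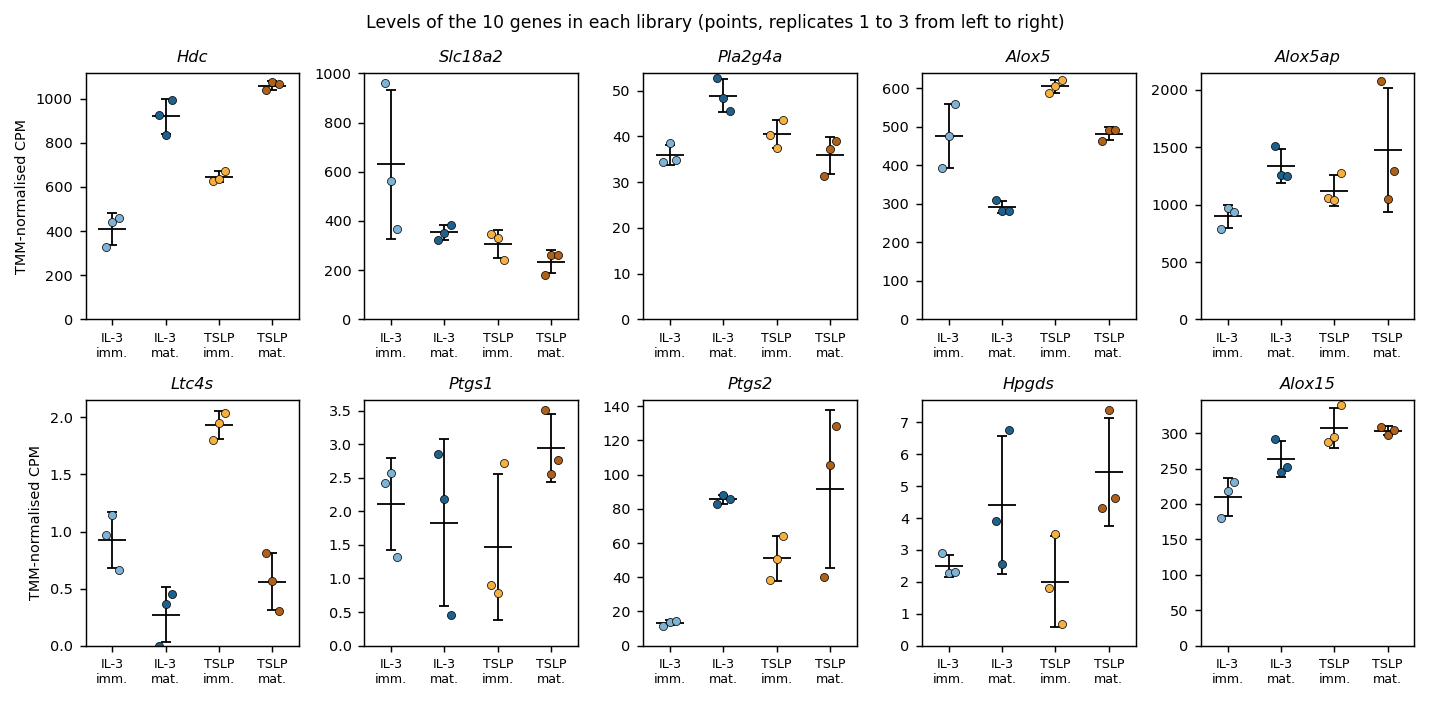
Level of each of the 10 genes (vertical axes, TMM-normalised CPM, starting at 0) in the 12 libraries, by group (horizontal axes, immature and mature cells of IL-3 and TSLP cultures). Points are libraries, and bars are the mean and SD of 3 libraries. Hdc is lowest in IL-3 immature and highest in TSLP mature libraries, and higher in mature than in immature libraries of both cultures. The single high point of Alox5ap and the single low point of Ptgs2 in TSLP mature cells both belong to TSLP mature 1.

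With maturation in IL-3 cultures, 6 of the 8 tested members were called (adjusted p under 0.05 in the quasi-likelihood test of edgeR), where 46.2% of all 10861 tested genes were called. The count was 3 when IL-3 immature 1, IL-3 mature 1 or IL-3 mature 2 was left out and 4 with DESeq2, its size factors, no filter, a filter of 10 CPM or without Rn45s, which is near the share of all genes. Mature cells were higher for 4 members, against 24.1% of all genes, and lower for 2, against 22.1%. Maturation in TSLP cultures moved 2 of 8, against 25.1% of all genes, both higher in mature cells (12.9% of all genes, with 12.2% lower). Between cytokines, 4 of 8 members differed in immature cells, against 13.3% of all genes, 3 higher with TSLP (7.38% of all genes) and 1 lower (5.9%). That count was 1 when IL-3 immature 1 or TSLP immature 3 was left out and 2 with no filter. Without TSLP immature 3 the count over all genes fell as well, from 1443 to 588. In mature cells 1 of 8 differed, against 24.3% of all genes, and it was higher with TSLP (12.4% of all genes, with 11.9% lower). With maturation, the median log2 fold change of the 8 genes was 0.51 under IL-3 and 0.19 under TSLP, and that of all tested genes was 0.06 and 0.03. TSLP against IL-3, it was 0.34 in immature and 0.17 in mature cells, against 0.04 and 0.09 for all genes. These comparisons share libraries and are not independent of each other.

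**Figure D2:**
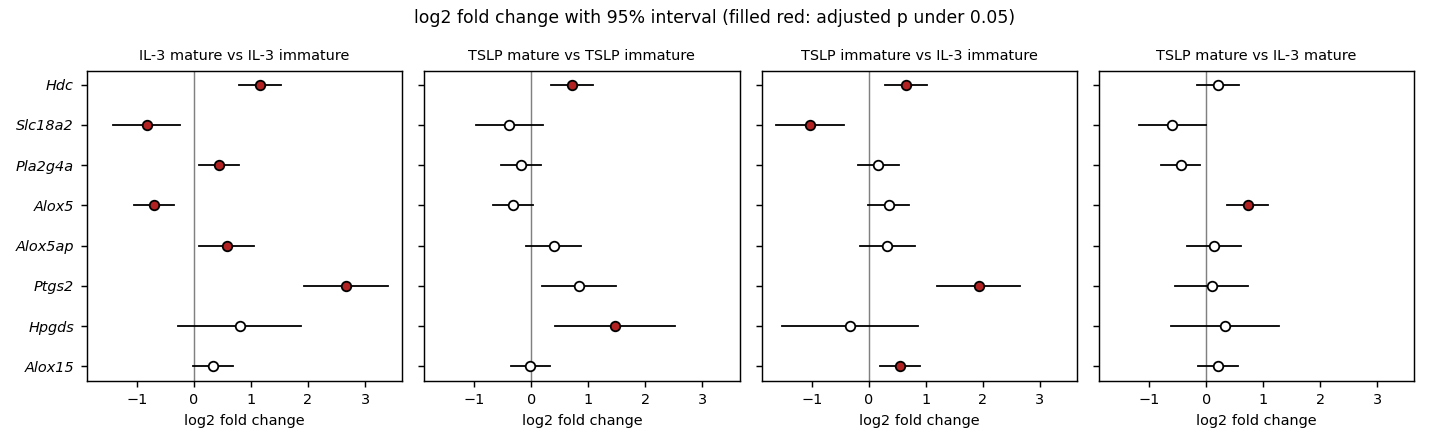
Log2 fold change (horizontal axes) of the 8 tested genes with its 95% interval, in a panel for each of 4 comparisons, positive where the group named first is higher. Filled red points passed an adjusted p of 0.05. Ptgs2 has the largest change with maturation in IL-3 cultures (2.67) and between cytokines in immature cells (1.93), and Alox5 is the only filled point in mature cells across cytokines (0.73).

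Hdc, the gene of the only histamine-making enzyme of mammals (chromosome 2, 126593667 to 126619299, minus strand), was higher in mature than in immature cells of both cultures. IL-3 immature libraries held 329, 439 and 461 CPM and IL-3 mature libraries 926, 836 and 996 CPM. TSLP immature libraries held 627, 636.5 and 674 CPM and TSLP mature libraries 1038, 1073 and 1066 CPM. The 4 groups thus formed 4 bands with no overlap, in the order IL-3 immature, TSLP immature, IL-3 mature, TSLP mature. The log2 fold change with maturation was 1.16 ± 0.174 (SE) in IL-3 cultures (2.24-fold, edgeR adjusted p = 4.85e-05), and this call held under all 19 alternative settings. In TSLP cultures it was 0.71 ± 0.173 (1.64-fold, edgeR adjusted p = 0.00626), and without TSLP immature 1 the adjusted p was 0.0525. The difference of these 2 effects, -0.45 ± 0.243, was not past the threshold (edgeR adjusted p = 0.349).

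Among immature cells, Hdc was 1.57-fold higher with TSLP (log2 0.66 ± 0.173, edgeR adjusted p = 0.0207), a call lost in 6 of 19 alternatives with adjusted p up to 0.0911. Among mature cells the difference was 0.20 on the log2 scale, with a 95% interval from -0.16 to 0.57 (edgeR adjusted p = 0.415). The top and bottom of the order differed most, TSLP mature cells being 2.58-fold above IL-3 immature cells (log2 1.37 ± 0.175, edgeR adjusted p = 9.52e-06). In that comparison 5 of the 8 members were called, against 50.6% of all genes, 4 of them higher in TSLP mature cells (27% of all genes) and 1 lower (23.5%).

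Slc18a2, which encodes the granule pump for histamine (chromosome 19, 59260896 to 59296012, plus strand, its exons overlapping the antisense gene Gm29261), was lower in mature than in immature cells of IL-3 cultures and lower in TSLP than in IL-3 immature cells, the reverse of Hdc. IL-3 immature libraries held 961.5, 561 and 367.5 CPM. IL-3 mature libraries held 322, 352 and 386 CPM, and the lowest immature library lies inside that range. TSLP immature libraries held 346, 332 and 242 CPM and TSLP mature libraries 180.5, 262 and 261 CPM. All 6 TSLP libraries were below all 3 IL-3 immature libraries. The difference of mature from immature cells was -0.83 ± 0.279 on the log2 scale in IL-3 cultures (edgeR adjusted p = 0.0224) and -0.39 ± 0.279 under TSLP (edgeR adjusted p = 0.341). The first call depended on single libraries, with values of -0.42 (adjusted p = 0.176) when IL-3 immature 1 was omitted, -0.76 (0.0755) when IL-3 mature 1 was, and -0.88 (0.0534) when IL-3 mature 2 was.

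In immature cells Slc18a2 was lower with TSLP (-1.04 ± 0.28, 2.05-fold, edgeR adjusted p = 0.0231), with -0.61 (adjusted p = 0.15) when IL-3 immature 1 was omitted and 0.106 as the adjusted p when TSLP immature 3 was. In mature cells the difference was -0.59 ± 0.279 (edgeR adjusted p = 0.134), although all 3 TSLP mature libraries were below the 3 IL-3 mature libraries. TSLP mature cells were 2.68-fold below IL-3 immature cells (log2 -1.42 ± 0.283, edgeR adjusted p = 0.000586), a call that held under all 19 alternatives.

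Because both genes were counted in the same library, their ratio is free of library scaling. The ratio of Hdc to Slc18a2 counts was 0.342, 0.783 and 1.25 in IL-3 immature libraries and 2.87, 2.37 and 2.58 in IL-3 mature libraries. It was 1.81, 1.92 and 2.79 in TSLP immature libraries and 5.75, 4.10 and 4.08 in TSLP mature libraries. The ratio was therefore at most 1.25 in the IL-3 immature libraries and at least 4.08 in the TSLP mature libraries, with IL-3 mature and TSLP immature libraries overlapping between them. It was formed after the values of both genes had been seen, and is given with no test.

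**Figure D3:**
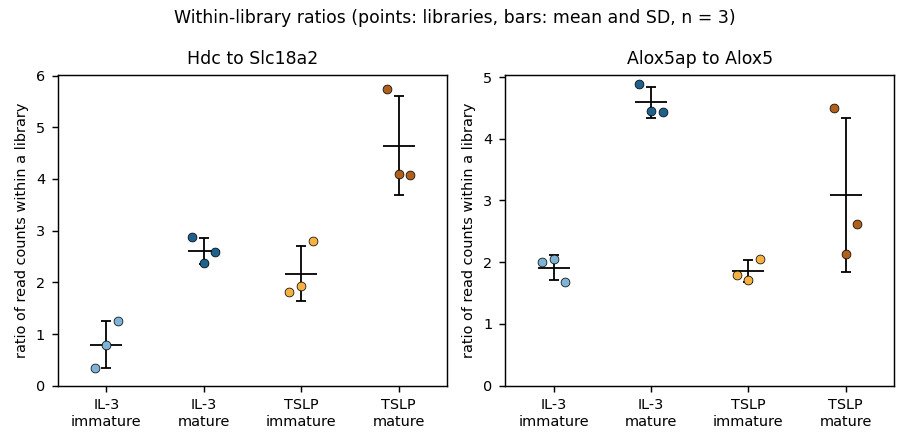
Ratio of read counts within each library (vertical axes, starting at 0) for Hdc to Slc18a2 and for Alox5ap to Alox5, by group. Points are libraries and bars are the mean and SD of 3 libraries. Hdc to Slc18a2 averages 0.793 in IL-3 immature and 4.64 in TSLP mature cells, and Alox5ap to Alox5 is at least 4.43 in all 3 IL-3 mature libraries and, among the TSLP libraries, only in TSLP mature 1.

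Pla2g4a, which supplies arachidonic acid to all eicosanoid branches (chromosome 1, 149829618 to 149961290, minus strand), kept within a narrow range of group means, 35.9 to 48.9 CPM. With IL-3, immature libraries held 34.4, 38.6 and 34.8 CPM and mature libraries 52.7, 48.5 and 45.5 CPM. With TSLP, immature libraries held 40.3, 37.5 and 43.6 CPM and mature libraries 31.3, 37.2 and 39.1 CPM. IL-3 mature libraries were above the other 9. The rise with maturation in IL-3 cultures was 0.44 ± 0.166 (1.36-fold, edgeR adjusted p = 0.0379), but it was lost in 16 of 19 alternatives, with 0.0661 under the size factors of DESeq2. In TSLP cultures the difference was -0.18, with a 95% interval from -0.53 to 0.17 (edgeR adjusted p = 0.471). TSLP mature cells were lower than IL-3 mature cells by a log2 difference of -0.45 ± 0.164 that stood just outside the threshold (edgeR adjusted p = 0.0557) and passed it in 14 of 19 alternatives. The difference of the maturation effects, -0.62 ± 0.233, did not pass (edgeR adjusted p = 0.158).

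Alox5, whose product makes the leukotriene precursor (chromosome 6, 116410077 to 116461178, minus strand), was lower in mature cells of IL-3 cultures, and among mature cells it was higher with TSLP. With IL-3, immature libraries held 392, 474.5 and 558 CPM and mature libraries 310, 282 and 282 CPM. With TSLP, immature libraries held 587, 604 and 621 CPM and mature libraries 462, 491 and 492 CPM. IL-3 mature was the lowest and TSLP immature the highest group, neither overlapping any other, while TSLP mature and IL-3 immature libraries overlapped. In IL-3 cultures the fall was -0.70 ± 0.169 (1.63-fold, edgeR adjusted p = 0.00278) and held under all 19 alternatives. In TSLP cultures the difference was -0.33 ± 0.167, with 3 of 3 mature below 3 of 3 immature libraries but an edgeR adjusted p of 0.169. The difference between these effects was 0.38 ± 0.237 (edgeR adjusted p = 0.423).

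Among mature cells Alox5 was the only member called between cytokines, 1.65-fold higher with TSLP (log2 0.73 ± 0.168, edgeR adjusted p = 0.00655), and it stayed called in all 19 alternatives with adjusted p up to 0.0459. Among immature cells the difference was 0.35 ± 0.167 (edgeR adjusted p = 0.183). The difference of TSLP mature from IL-3 immature cells was 0.02, with a 95% interval from -0.33 to 0.38 (edgeR adjusted p = 0.93).

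Alox5ap, which encodes the protein that presents arachidonic acid to the Alox5 enzyme (chromosome 5, 149264767 to 149288153, plus strand, overlapped by the antisense gene Gm19719), did not follow Alox5. IL-3 immature libraries held 787, 971 and 937 CPM and IL-3 mature libraries 1511, 1257 and 1251 CPM. TSLP immature libraries held 1054, 1037 and 1279 CPM and TSLP mature libraries 2081, 1049 and 1290 CPM. The first TSLP mature library stood far above the other 2, which were within or just above the range of the TSLP immature libraries. In IL-3 cultures the rise with maturation was 0.58 ± 0.228 (1.49-fold, edgeR adjusted p = 0.0486), and it was lost in 16 of 19 alternatives. In TSLP cultures the difference was 0.39 ± 0.227 with all libraries (edgeR adjusted p = 0.229) and -0.03 ± 0.17 without TSLP mature 1 (edgeR adjusted p = 0.902). Against IL-3 immature cells, TSLP mature cells were 1.64-fold higher (log2 0.71 ± 0.228, edgeR adjusted p = 0.0159), and without TSLP mature 1 the difference was 0.25 (edgeR adjusted p = 0.225). The part of the neutrophil, macrophage and B cell markers of that library in these values was not tested.

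The Alox5ap to Alox5 ratio of counts within a library was 2.01, 2.05 and 1.68 in IL-3 immature and 1.79, 1.71 and 2.06 in TSLP immature libraries. In IL-3 mature libraries it was 4.88, 4.45 and 4.43. In TSLP mature libraries it was 4.50 in the first and 2.14 and 2.62 in the others. Immature libraries of both cultures thus lay between 1.68 and 2.06, and all 6 mature libraries lay above that range, although by little in TSLP mature 2 and 3.

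Ltc4s, which commits the pathway to cysteinyl leukotrienes (chromosome 11, 50236461 to 50238616, minus strand, overlapped by the antisense gene Gm26542), had very few counts. With IL-3, its counts were 2, 4 and 2 in immature and 0, 1 and 1 in mature libraries, and with TSLP 6, 5 and 6 in immature and 3, 2 and 1 in mature libraries. The TSLP immature libraries were the highest 3 of the 12. Summed over the group and scaled to depth, 6 counts in TSLP mature against 17 in TSLP immature cells give a ratio of 0.297 with a 95% interval, for counting error only, from 0.0959 to 0.79. TSLP against IL-3 immature cells gives 2.07, with an interval from 0.845 to 5.53. No firmer statement can be made at this depth.

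Ptgs1, the constitutive cyclooxygenase (chromosome 2, 36230426 to 36252272, plus strand, overlapped by Gm43621), was also below the limit for testing. With IL-3, its counts were 5, 9 and 4 in immature and 8, 6 and 1 in mature libraries, and with TSLP 3, 2 and 8 in immature and 13, 9 and 9 in mature libraries. Scaled to depth, all groups compared overlapped. TSLP mature cells had 31 counts in all against 13 in TSLP immature cells, a depth-scaled ratio of 2.01 with an interval from 1.02 to 4.18 for counting error only. The ratio of IL-3 mature to IL-3 immature cells was 0.92, with an interval from 0.432 to 1.93.

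Ptgs2, the inducible cyclooxygenase (chromosome 1, 150100031 to 150108227, plus strand), had the largest change of the tested members with maturation in IL-3 cultures and between the immature groups. IL-3 immature libraries held 11.6, 13.7 and 14.6 CPM and IL-3 mature libraries 83.0, 87.8 and 85.7 CPM. TSLP immature libraries held 38.2, 50.8 and 64.3 CPM and TSLP mature libraries 39.9, 106 and 129 CPM. IL-3 immature libraries were far below all others, while TSLP mature 1 sat among the TSLP immature libraries. In IL-3 cultures the rise was 6.36-fold (log2 2.67 ± 0.347, edgeR adjusted p = 1.14e-05), and it was called in all 19 alternatives, at a log2 fold change of 2.56 to 2.73. In TSLP cultures the difference was 0.84 ± 0.307 (edgeR adjusted p = 0.0559). It was past the threshold in 3 of 19 alternatives, at 1.11 ± 0.18 without TSLP mature 1 (edgeR adjusted p = 0.000212), 0.78 with no filter on low counts (edgeR adjusted p = 0.00443) and 0.77 with a replicate block (edgeR adjusted p = 0.025). Without TSLP mature 3 it was 0.45 (edgeR adjusted p = 0.315).

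The maturation effect on Ptgs2 was smaller in TSLP than in IL-3 cultures by 1.83 on the log2 scale (-1.83 ± 0.459, 95% interval -2.80 to -0.86, edgeR adjusted p = 0.0337), the only difference of maturation effects called among the 8 members, where 4.19% of all genes were called (2.15% in this direction and 2.04% in the other). Leaving out a library in turn gave -2.17 to -1.51, with the call lost in 8 of these 12 fits (adjusted p up to 0.0745), and the call held without TSLP mature 1 (edgeR adjusted p = 0.0027). Between the immature groups Ptgs2 was 3.8-fold higher with TSLP (log2 1.93 ± 0.347, edgeR adjusted p = 0.00214), in all 19 alternatives. Between the mature groups the difference was 0.09, with a 95% interval from -0.54 to 0.73 (edgeR adjusted p = 0.849). By mean the order was IL-3 immature, TSLP immature, IL-3 mature and TSLP mature, and the TSLP mature libraries overlapped both TSLP immature and IL-3 mature libraries.

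**Figure D4:**
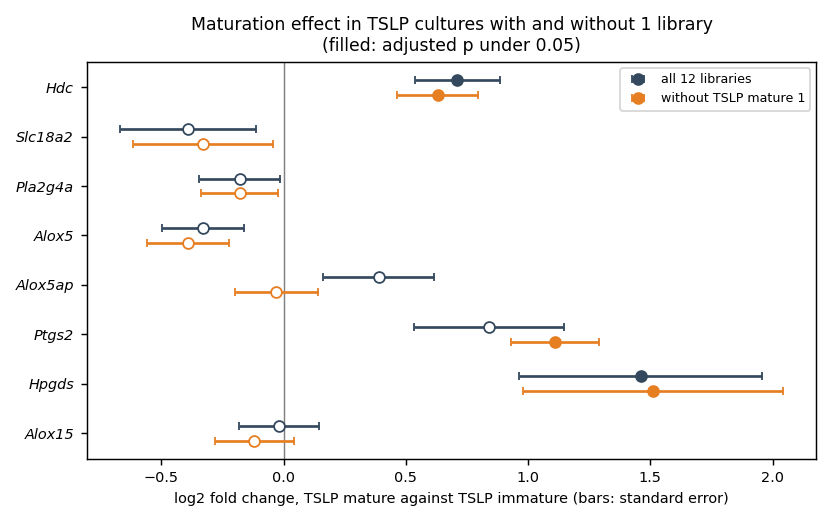
Log2 fold change between TSLP mature and TSLP immature cells (horizontal axis, with its standard error) of the 8 tested genes, with all 12 libraries (dark) and without TSLP mature 1 (orange). Filled points passed an adjusted p of 0.05. Alox5ap moves from 0.39 to -0.03 and Ptgs2 from 0.84 to 1.11, while Hdc (0.71 and 0.63) stays filled in both.

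Hpgds, the prostaglandin D2 synthase gene (chromosome 6, 65117293 to 65144908, minus strand), was expressed at a few CPM. With IL-3, immature libraries held 2.91, 2.29 and 2.32 CPM and mature libraries 3.92, 2.55 and 6.76 CPM. With TSLP, immature libraries held 1.80, 3.52 and 0.681 CPM and mature libraries 4.32, 7.38 and 4.62 CPM. All 3 TSLP mature libraries were above the 3 TSLP immature libraries, whereas the IL-3 groups overlapped. The rise with maturation was called in TSLP cultures (1.46 ± 0.496, 2.75-fold, edgeR adjusted p = 0.0405), from 57 counts against 17 over the groups, but it was lost in 12 of the 18 alternatives that tested the gene. In IL-3 cultures the difference was 0.80 ± 0.512 (edgeR adjusted p = 0.215), and the difference of the effects was 0.66 ± 0.722 (edgeR adjusted p = 0.691).

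Alox15, which encodes a lipoxygenase that oxidises arachidonic acid at another carbon than the Alox5 enzyme does (chromosome 11, 70344152 to 70352031, minus strand), had group means from 209 to 307 CPM. With IL-3, immature libraries held 179.5, 218 and 231 CPM and mature libraries 292, 245 and 252 CPM. With TSLP, immature libraries held 288, 295 and 339 CPM and mature libraries 309, 297 and 304 CPM. The IL-3 immature libraries were the lowest 3 of the 12. In immature cells Alox15 was 1.47-fold higher with TSLP (log2 0.55 ± 0.165, edgeR adjusted p = 0.0367), a call lost in 12 of 19 alternatives with adjusted p up to 0.167. The difference with maturation was 0.33 ± 0.165 in IL-3 cultures (edgeR adjusted p = 0.116) and -0.02 in TSLP cultures, with a 95% interval from -0.36 to 0.33 (edgeR adjusted p = 0.953). TSLP mature cells were 1.45-fold above IL-3 immature cells (log2 0.53 ± 0.165, edgeR adjusted p = 0.0131), which was lost in 9 of 19 alternatives.

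In a test of any difference among the 4 groups, Hdc, Slc18a2, Alox5, Ptgs2 and Alox15 differed among them, 5 of the 8 members against 60.8% of all tested genes. Alox5ap (edgeR adjusted p = 0.0543), Hpgds (edgeR adjusted p = 0.0517) and Pla2g4a (edgeR adjusted p = 0.0703) stood just outside the threshold. Among 7543 genes of at least 10 CPM on average, the profile over the 12 libraries closest to that of Hdc was that of Tbc1d10c, with a root mean square difference of 0.128 on the mean-centred log2 scale. The closest to Slc18a2 was Zfp609 (0.178), to Alox5 Dapp1 (0.116), to Ptgs2 Pag1 (0.285) and to Alox15 Itgb2 (0.105). For scale, the members' own SD over the libraries was 0.572, 0.616, 0.416, 1.19 and 0.261 log2 in the same order.

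Markers of other blood cells also differed between stages. The summed macrophage and monocyte markers, all 10 with counts in every group, ran from 221.5 to 369 CPM in immature and 792 to 1170 CPM in mature libraries of IL-3 cultures, and from 336 to 406.5 CPM and 747 to 1704 CPM in those of TSLP cultures. With IL-3, C1qa averaged 3.75 and 1.95 CPM and C1qc 2.31 and 2.18 CPM, while the other markers of this set averaged higher in mature cells. The 10 neutrophil markers summed to 828 to 904 and 1194 to 1415 CPM in the IL-3 groups and to 562.5 to 642 and 669 to 1419 CPM in the TSLP groups, but they moved in opposite directions. Mpo, the myeloperoxidase gene, averaged 714 CPM in immature and 1.46 CPM in mature cells with IL-3 and 333.5 and 6.45 CPM with TSLP, whereas Cxcr2 averaged 85.1 and 957 CPM with IL-3 and 233 and 644 CPM with TSLP. S100a9 reached 283 CPM in TSLP mature 1, against 9.36 and 4.62 CPM in the other TSLP mature libraries. The 9 eosinophil markers summed to 33.7 to 41.2 and 67.8 to 93.0 CPM in the IL-3 groups. In the TSLP groups the sums were 21.1 to 38.8 and 63.3 to 108 CPM. These markers moved in opposite directions as well. Ccr3 averaged 4.46, 51.2, 8.41 and 28.5 CPM and Siglecf 4.70, 20.4, 6.14 and 32.9 CPM in the same order. Prg2 averaged 23.6 CPM in immature and 3.24 CPM in mature cells with IL-3, and Prg3 2.02 and 0.119 CPM. With TSLP, Prg2 averaged 7.41 and 7.27 CPM, with TSLP mature 1 at 19.4 CPM. The defining gene Epx had 0 to 2 counts in a library. The part of these markers of other cells in the rises of Hdc, Ptgs2, Alox5ap and Hpgds and of the receptor genes described next was not tested. In sorted bulk samples, fewer cells that express a gene and less RNA per cell cannot be told apart.

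The wider histamine and eicosanoid pathway was read from a list of 67 other genes, of which 65 had a row (Aoc1 and Hrh3 were not analysed here), 60 had counts and 42 were tested. With maturation in IL-3 cultures 25 of 42 were called, against 46.2% of all genes, 20 higher and 5 lower in mature cells. In TSLP cultures 17 were called, against 25.1% of all genes, 14 higher and 3 lower. Between cytokines 12 were called in immature cells, against 13.3% of all genes, 8 higher and 4 lower with TSLP, and 13 in mature cells, against 24.3%, 7 higher and 6 lower. The median log2 fold change of the 42 with maturation was 0.94 under IL-3 and 0.41 under TSLP, against 0.06 and 0.03 for all genes. Without TSLP immature 3 the count between cytokines in immature cells was 4 of 42, and the count over all genes fell as well, from 1443 to 588.

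Every tested receptor for these mediators other than Hrh2 rose with maturation in both cultures. All 4 tested prostanoid receptors of 9 listed were higher in mature cells of both cultures, under each of the 19 alternatives, where 24.1% of all genes were higher with IL-3 and 12.9% with TSLP. The other listed prostanoid receptors had too few counts to test. Of the tested ones, Ptgfr was low in IL-3 immature libraries and passed the filter through groups where it was higher, so its place in this count depends partly on the filter. Ptger3, an inhibitory prostaglandin E2 receptor, stood with IL-3 at 65.0, 79.1 and 92.4 CPM in immature and 172, 176 and 214 CPM in mature libraries, and with TSLP at 164.5, 149 and 217 CPM in immature and 291, 359 and 377 CPM in mature libraries. It was the prostanoid receptor that also differed between cytokines at both stages, by 1.16 ± 0.2 in immature (edgeR adjusted p = 0.00148) and 0.87 ± 0.195 in mature cells (edgeR adjusted p = 0.00542). Ptger4, a stimulatory prostaglandin E2 receptor, rose by 1.41 ± 0.22 in IL-3 and 0.86 ± 0.205 in TSLP cultures (edgeR adjusted p = 7.19e-05 and 0.00584). Ptgir, the prostacyclin receptor, rose by 1.53 ± 0.174 and 0.97 ± 0.17 (edgeR adjusted p = 2.73e-06 and 0.000578). Ptgfr, the prostaglandin F2α receptor, ranged with IL-3 over 0.485 to 1.66 CPM in immature and 11.7 to 17.5 CPM in mature libraries, a log2 change of 3.63 ± 0.407 (edgeR adjusted p = 2.37e-06), and rose by 2.08 ± 0.362 under TSLP (edgeR adjusted p = 0.000536).

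Both tested leukotriene B4 receptors rose as well. Ltb4r1, the high-affinity receptor, changed by 1.37 ± 0.171 in IL-3 and 0.80 ± 0.167 in TSLP cultures (edgeR adjusted p = 7.74e-06 and 0.00227). Ltb4r2 changed by 1.21 ± 0.24 and 0.98 ± 0.205 (edgeR adjusted p = 0.000655 and 0.00237) and was also higher with TSLP at both stages. The histamine H4 receptor gene Hrh4 stood with IL-3 at 14.1, 12.6 and 16.2 CPM in immature and 35.6, 26.2 and 40.6 CPM in mature libraries, and with TSLP at 22.6, 27.4 and 23.8 CPM in immature and 55.3, 65.0 and 50.8 CPM in mature libraries. It rose by 1.25 ± 0.213 and 1.22 ± 0.196 on the log2 scale with maturation (edgeR adjusted p = 0.000163 and 0.000259), and the difference of these effects was -0.04 ± 0.281 (edgeR adjusted p = 0.967). Hrh2, the other tested histamine receptor, was called in neither culture, with differences of 0.33 ± 0.241 and 0.17 ± 0.234 (edgeR adjusted p = 0.282 and 0.635). The cysteinyl leukotriene receptors Cysltr1 and Cysltr2 had 36 and 8 counts over all libraries, and the prostaglandin D2 receptors Ptgdr and Ptgdr2 had 5 and 4, too few to test.

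**Figure D5:**
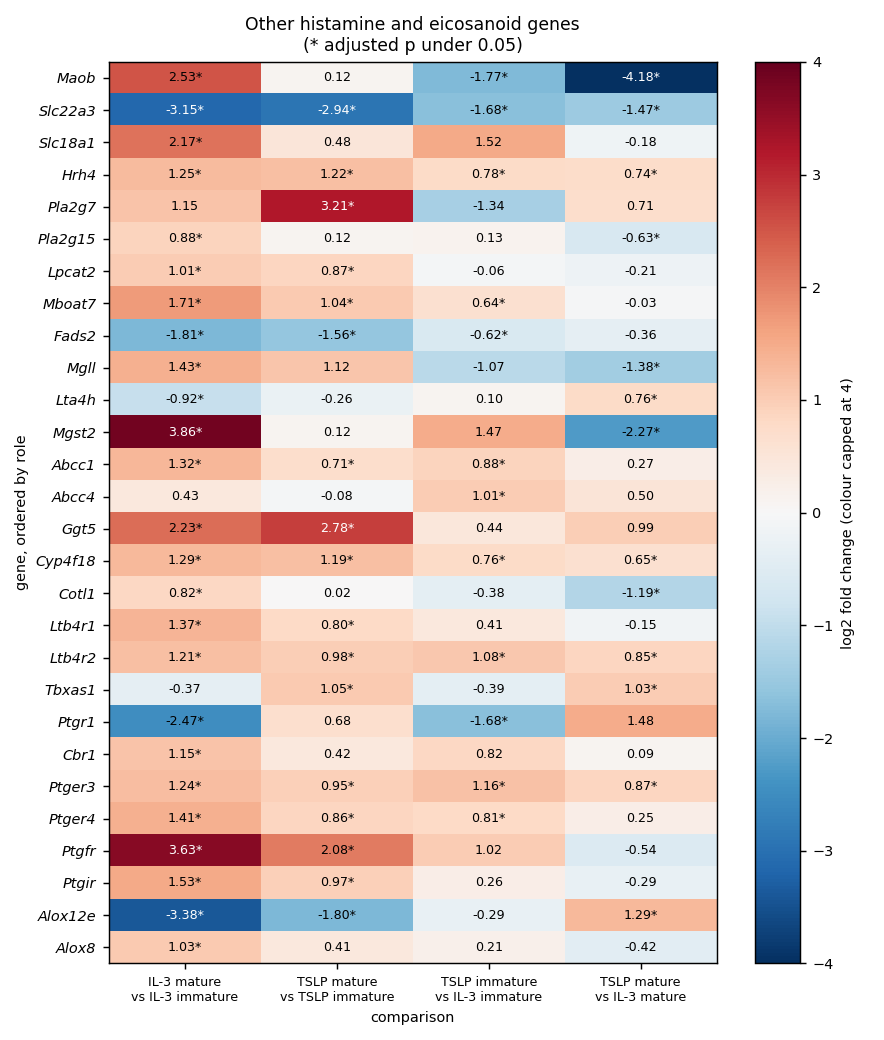
Log2 fold change (numbers and colour, capped at 4 in colour) of the 28 other pathway genes called in at least 1 of 4 comparisons (columns), ordered by role from histamine handling at the top to lipoxygenases at the bottom. A star marks an adjusted p under 0.05. The receptor genes Hrh4, Ltb4r1, Ltb4r2, Ptger3, Ptger4, Ptgfr and Ptgir are starred and positive in both maturation columns.

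Of 10 tested genes for phospholipases and fatty acid handling, 5 were called with maturation in IL-3 and 4 in TSLP cultures, and of 9 for leukotriene synthesis, export and breakdown, 6 and 3, beside 46.2% and 25.1% of all genes. Mboat7, which loads arachidonic acid onto phosphatidylinositol, rose by 1.71 ± 0.17 in IL-3 and 1.04 ± 0.165 in TSLP cultures (edgeR adjusted p = 6.35e-07 and 0.00024), while Fads2, a desaturase on the route to arachidonic acid, fell by 1.81 and 1.56 on the log2 scale (SE 0.188 and 0.19, edgeR adjusted p = 1.03e-06 and 1.74e-05). Abcc1, which exports leukotriene C4, rose by 1.32 ± 0.192 and 0.71 ± 0.182 (edgeR adjusted p = 3.65e-05 and 0.0096). The second Abcc1 call was lost when TSLP immature 1 (adjusted p = 0.0797), TSLP immature 2 (0.0502) or TSLP mature 3 (0.0597) was omitted. Cyp4f18, which inactivates leukotriene B4, ranged with IL-3 over 232 to 356 CPM in immature and 626 to 798 CPM in mature libraries (log2 1.29 ± 0.197, edgeR adjusted p = 5.68e-05), and with TSLP over 432.5 to 568 CPM and 1013 to 1173 CPM (1.19 ± 0.195, edgeR adjusted p = 0.000311).

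Slc22a3, a transporter that carries histamine across the plasma membrane, fell by 3.15 and 2.94 on the log2 scale with maturation (SE 0.232 and 0.261, edgeR adjusted p = 2.35e-08 and 7.12e-07) and was lower with TSLP at both stages. Maob, an amine oxidase, rose with maturation in IL-3 cultures (2.53 ± 0.333, edgeR adjusted p = 1.34e-05) and differed by 0.12 ± 0.548 under TSLP (edgeR adjusted p = 0.901), the difference of the effects standing at -2.41 ± 0.668 (edgeR adjusted p = 0.0536). Alox12e, a further lipoxygenase gene, fell by 3.38 and 1.80 on the log2 scale (SE 0.253 and 0.218, edgeR adjusted p = 2.82e-08 and 1.67e-05), less in TSLP cultures by 1.58 ± 0.339 (edgeR adjusted p = 0.0134, and 0.0516 without IL-3 mature 3).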

How the data were processed

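The input was raw read counts per gene in 12 libraries, which the authors deposited in 1 table. The study amplified polyadenylated RNA as cDNA, sequenced it on an Ion Proton, trimmed reads with Cutadapt and used Bowtie2 against GRCm38 reference RNA, whereas the submitters' notes name GRCm39 and mm10. Handling of multi-mapping reads, strand and molecular identifiers is not given in the sources used here, so antisense genes cannot be separated and intervals on counts cover counting error only. A row of column totals was left out.

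Counts were tested with the quasi-likelihood test of edgeR 4.0.16 (R 4.3.3) after TMM scaling and filterByExpr (minimum count 10, total 15), with 1 mean per group, Benjamini-Hochberg adjustment over 10861 genes and calls under 0.05. The depth was 1720065 to 3685285 counts a library, 7.43% to 20.2% of them from Rn45s. Replicates always differed beyond sampling noise. Alternatives were DESeq2 1.42.0 or its size factors, other filters, TMM on uncalled genes, omission of Rn45s, a replicate block and each library left out. Gene positions are from GENCODE (GRCm38) and promoters from RefSeq (GRCm38.p6), where 8 of the 10 genes matched. The model was tested on simulated data.

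The genes, lists and motifs were chosen with earlier results of these data known. All 10 members are named, with the 14 genes of the pathway list that have the smallest 4-group p among those called within a cytokine or stage, and the nearest profile of each member called among the 4 groups. Other genes and the ratios were chosen after their values were seen.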

Additional observations from a re-analysis of the deposited data

Results flagged for a closer look

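With all 12 libraries, the maturation effect on Ptgs2 was called as different between the cytokines. Mature cells exceeded immature cells by a log2 fold change of 2.67 under IL-3 and 0.84 under TSLP, and the test of the difference itself gave -1.83 ± 0.459 (adjusted p = 0.0337, edgeR). The IL-3 immature libraries, at 11.6 to 14.6 CPM, were the lowest of the 12, and the values of the TSLP mature libraries ran from 39.9 to 129 CPM. In TSLP mature 1, the lowest of these, the summed neutrophil, macrophage and monocyte, and B cell markers were highest, and their part in the difference was not tested. Without that library the difference was -1.51 (adjusted p = 0.0027, edgeR). The call was lost in 8 of the 12 fits that each left out a library, with edgeR adjusted p up to 0.0745. Omitting any single IL-3 library was enough to lose it.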

How the results depend on the processing

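Hdc, Ptgs2 and Alox5 with maturation in IL-3 cultures, Alox5 between mature cells, Ptgs2 between immature cells, and Hdc, Slc18a2 and Ptgs2 in TSLP mature against IL-3 immature cells were called in all 19 alternatives. The number of members called, leaving out a library in turn, was 3 to 6 (6 with all) with maturation in IL-3 cultures, 0 to 3 (2) in TSLP cultures, 1 to 3 (1) between mature cells, 1 to 4 (4) between immature cells, 3 to 5 (5) in TSLP mature against IL-3 immature cells and 0 to 1 (1) for the difference of maturation effects. With maturation in IL-3 cultures it was 4 with DESeq2, its size factors, no filter, a filter of 10 CPM in 3 libraries or without Rn45s. In TSLP cultures it was 1 with a filter of 10 CPM in 3 libraries, without Rn45s or with DESeq2. Between mature cells it was 2 with the size factors of DESeq2, TMM on uncalled genes, the 10 CPM filter, without Rn45s or with DESeq2. Between immature cells it was 2 with no filter.

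Some differences that were not called with all libraries changed sign. Alox5 in TSLP mature against IL-3 immature cells (0.02) was -0.07 with the size factors of DESeq2, -0.03 with TMM on uncalled genes, -0.05 with no filter, -0.13 with the 10 CPM filter, -0.1 without Rn45s, -0.07 with DESeq2 and -0.18 to 0.04 over the library omissions. Over the same omissions, Alox5ap with maturation in TSLP cultures (0.39) ran from -0.03 (without TSLP mature 1) to 0.54. Between mature cells (0.14) it ran from -0.28 (likewise) to 0.29. Ptgs2 between mature cells (0.09) was -0.02 with the replicate block and ran from -0.29 (without TSLP mature 3, and -0.09 without TSLP mature 2) to 0.37. Hpgds ran from -0.01 to 0.68 between mature cells (0.33), the lower end without IL-3 mature 2 and at 0 without TSLP mature 2, and from -0.98 to 0.06 between immature cells (-0.33), the upper end without TSLP immature 3. The difference of maturation effects ran from -0.04 (without IL-3 immature 1) to 0.68 for Slc18a2 (0.45 with all libraries). For Alox5ap (-0.18 with all libraries) it ran from -0.56 to 0.01 (without TSLP mature 2). The causes were not tested.

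Over all genes, the count called with maturation in TSLP cultures was 1774 without TSLP immature 1 against 2731. Between mature cells it was 1658 without IL-3 mature 2 against 2634, between immature cells 588 without TSLP immature 3 and 2243 without TSLP mature 1 against 1443, and for the difference of effects 240 without IL-3 mature 2 and 723 without TSLP mature 1 against 455. The share of higher calls between immature cells was 44.8% with no filter, 769 higher and 948 lower, against 802 and 641. Without Rn45s the median of all genes in TSLP mature against IL-3 immature cells moved from 0.07 to -0.05. Deviations of same-numbered libraries of different groups correlated at r over 0.1 in 7 of 18 pairs (median 0.0786) and those of differently numbered libraries in 2 of 36 (median -0.0456). No label ties the numbers, and these correlations cannot settle whether same-numbered libraries shared a culture. The main tests left the libraries unpaired. With the number as a replicate block, Ptgs2 (0.77) was added to the calls with maturation in TSLP cultures, for 3 members in all, and no other member's call changed. Members at a few counts, Ltc4s, Ptgs1 and Hpgds, are limited by depth.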

Other observations

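Further genes of the pathway, chosen after their values were seen, included enzymes of the later steps. Mgst2, a microsomal glutathione transferase that can make leukotriene C4, held 1.46, 1.14 and 0.331 CPM in immature and 14.96, 12.4 and 15.3 CPM in mature libraries of IL-3 cultures, a log2 fold change of 3.86 ± 0.693 (edgeR adjusted p = 0.00027) that was called in all 19 alternatives. The IL-3 immature libraries held 8 counts in all. Mgst2 passed the main filter on low counts through the IL-3 mature libraries, where it was highest. In TSLP cultures it held 1.503, 6.25 and 0.681 CPM in immature and 4.86, 3.12 and 0.615 CPM in mature libraries, a difference of 0.12 ± 0.663 (edgeR adjusted p = 0.916). The difference of the effects was -3.74 (edgeR adjusted p = 0.0463), lost in 13 of 19 alternatives. Lta4h, the leukotriene B4-forming hydrolase, fell by 0.92 on the log2 scale with maturation in IL-3 cultures (edgeR adjusted p = 0.000259), and among mature cells it was 0.76 ± 0.163 higher with TSLP (edgeR adjusted p = 0.00418). Tbxas1, thromboxane synthase, ranged over 9.47 to 11.4 CPM in mature cells with IL-3 and 18.4 to 25.9 CPM with TSLP (1.03 ± 0.243, edgeR adjusted p = 0.00727).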
